A study of Rattus norvegicus with 28 samples.

Results

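Hindlimb unloading was compared between rats that all received acetyl-L-carnitine (ALCAR), as the 7 arrays of ALCAR suspended against the 7 arrays of ALCAR control soleus muscle. The arrays were chosen by their titles and made up 14 of the 28 in the series, each with 1185 spots. All rats were female Wistar rats aged 3 months. The ALCAR suspended arrays (D, E, H, I, L, P and R) came from rats suspended by the hindlimbs for 14 days. The ALCAR control arrays (F, G, M, N, O, Q and S) came from rats that had not been suspended. Suspended and control rats without ALCAR, 7 arrays each, served to test whether ALCAR rats responded to suspension differently. The labels do not give the dose, route or duration of ALCAR, nor how many animals gave each RNA. The p-values thus set a difference between groups against the spread between arrays, which may in part be technical. The series is described as 21 samples in 3 groups, without an ALCAR control group, which only the sample titles give.

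The soleus is a slow, oxidative muscle of the calf that works against gravity. Suspension of the hindlimbs removes its load. Unloaded soleus is known to lose mass and to shift from slow to fast contractile proteins and from fat to glucose as fuel. ALCAR is the acetyl ester of carnitine, the carrier of fatty acids into mitochondria, and has been given to support mitochondrial function in muscle. RNA was taken from cryosections of the whole muscle, so each array averages fibres, vessels, nerve and connective tissue. Fewer cells of a type and less RNA per cell cannot be told apart in such samples. The spots carry numbers only, and 0 of the 1185 matched the gene table used here. No gene, sequence, pathway or marker of soleus could therefore be named or checked, and spots are given by number for the 2 with the smallest p in each direction.

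Each value was the share of a spot in the summed signal of its array, given as ppm (1e+06 times the share). The floor of an array was taken as its 5th percentile. It averaged 315 ± 99.2 ppm in ALCAR suspended and 285 ± 112 ppm in ALCAR control arrays (SD, n = 7 each), with overlapping ranges of 224 to 507 ppm and 186 to 477 ppm. The 10 brightest spots held 22.9 ± 5.70% of the signal in ALCAR suspended and 25.2 ± 6.42% in ALCAR control arrays. In two-sided exact permutation tests no difference between the groups passed, in the floor (p = 0.605), the array median (p = 0.639) or the share of the 10 brightest spots (p = 0.478). ALCAR control O and ALCAR suspended H had the highest median of their group, at 613 and 612 ppm, and the smallest share in the 10 brightest spots at 13.8% and 12.6%. A spot was called brighter where its mean over all 28 arrays exceeded 2 times the average floor, that is 601 ppm, which left 292 brighter and 893 dimmer spots.

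ALCAR suspended and ALCAR control arrays separated in the first principal component, in which the spots that vary most weigh most. On the first principal component of the 1185 normalised spots, which held 26.3% of the variance, ALCAR suspended arrays lay at 3.05 ± 1.05 and ALCAR control arrays at -3.05 ± 1.17 (SD, n = 7 each). The groups did not overlap: the lowest ALCAR suspended array was at 1.45 and the highest ALCAR control array at -2.33 (exact permutation p = 0.000583, the smallest that 7 against 7 arrays can give; Benjamini-Hochberg adjusted p = 0.00291 over 5 array measures). The second component held 24.8% of the variance and set O, H, G and E, the arrays with the highest medians, against the rest. Its difference between the groups did not pass (exact permutation p = 0.869).

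**Figure D1:**
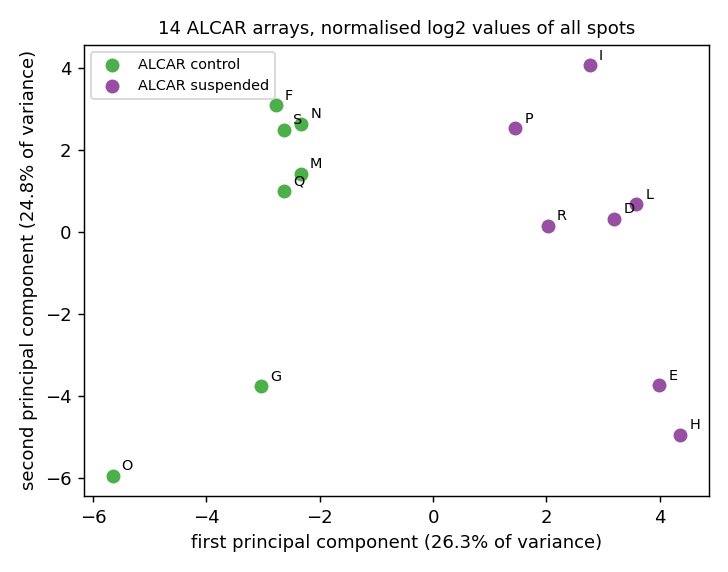
Scores of the 14 ALCAR arrays on the first and second principal component of the normalised log2 values. Each axis gives its share of variance, and the letter of each array stands beside its point. The groups separate along the first component, and ALCAR control O lies farthest from the others of its group.

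In unloaded muscle 48 of the 1185 spots changed (limma adjusted p under 0.05), which is 4.05% of all spots. Of these, 22 rose (1.86% of all spots) and 26 fell (2.19%). The largest differences were losses. The 26 spots that fell had a median difference of -0.42 on the log2(share + pseudocount) scale, with a range of -2.15 to -0.12, and the 22 that rose one of 0.25, with a range of 0.11 to 0.90. The median over all 1185 spots was 0.00, which quantile normalisation largely fixes, and 0.07 on unnormalised values. That scale understates the change of dim spots. By the ratio of mean shares, 4 spots fell 2-fold or more and 1 rose 2-fold or more. In all, 235 spots (19.8%) had an unadjusted p under 0.05. The last spot that passed and the first that did not had adjusted p-values of 0.0484 and 0.0509.

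Changes were called in 20 of the 292 brighter spots (6.85%), with 9 higher (3.08%) and 11 lower (3.77%), and in 28 of the 893 dimmer spots (3.14%), with 13 higher (1.46%) and 15 lower (1.68%). On the log2 scale the median difference of the brighter spots was 0.60 for the 9 that rose and -0.51 for the 11 that fell. Among the dimmer ones, whose differences the pseudocount compresses, it was 0.17 for the 13 that rose and -0.27 for the 15 that fell. After normalisation the ALCAR suspended and ALCAR control arrays did not overlap at 24 of the 48 spots, 8 that rose and 16 that fell, where 2.36% of all spots had groups that did not overlap. In the deposited shares, before any normalisation, they did not overlap at 9 of the 48 spots, 4 that rose and 5 that fell, against 1.43% of all spots. The 48 spots were picked by their difference in these same arrays, which favours groups that do not overlap, so these counts carry no test.

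**Figure D2:**
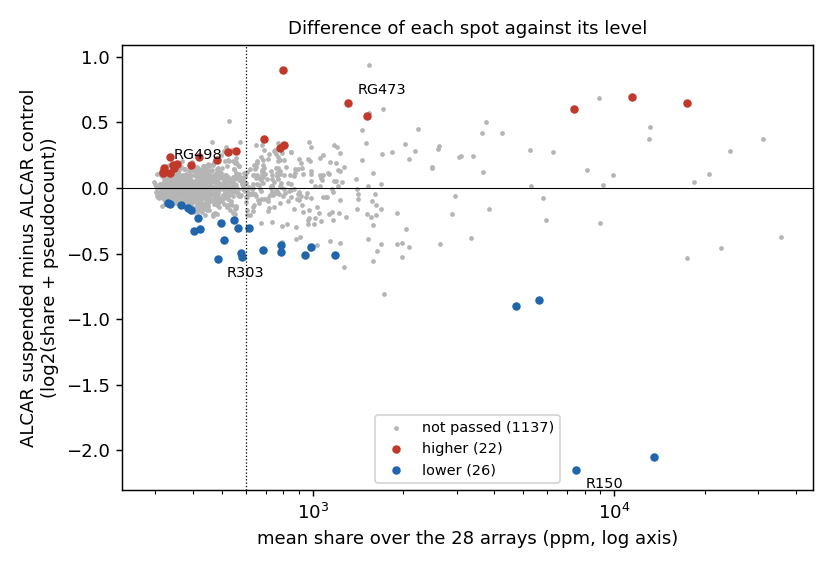
Difference of each of the 1185 spots between ALCAR suspended and ALCAR control arrays (vertical axis, log2(share + pseudocount)) against its mean share over 28 arrays (horizontal log axis, ppm). Red and blue points are the 22 spots that rose and the 26 that fell, grey points did not pass, and the dotted line marks 601 ppm; 2 bright spots fell by more than 2 on the log2 scale.

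The calls held to different degrees when arrays were scaled otherwise. Without normalisation between arrays 19 spots passed, 6 higher and 13 lower, and after centring each array on its bright spots 16 did, 3 higher and 13 lower. Against 22 higher and 26 lower with quantile normalisation, the balance moved towards losses under both scalings. It moved towards gains with the ALCAR arrays normalised and fitted alone, at 35 higher and 27 lower. The same held with arrays weighted by quality, at 87 higher and 69 lower. Without O and H 28 spots passed, 9 higher and 19 lower, and 26 of them were among the 48. Of the 48 spots, 14 passed in the same direction under each of the 41 alternatives that tested all spots, 12 of them lower and 2 higher. These 14 included 8 of the 11 brighter and 4 of the 15 dimmer spots that fell, 2 of the 9 brighter spots that rose, and 0 of the 13 dimmer spots that rose.

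R150, a bright spot in loaded muscle, kept only a small part of its signal after unloading. In ALCAR control muscle it had a lowest value of 10462 ppm (array O), a median of 13292 ppm and a highest value of 17149 ppm (array N). In ALCAR suspended muscle it had a lowest value of 1235 ppm (array I), a median of 2252 ppm and a highest value of 5353 ppm (array P). Every ALCAR suspended array thus lay well below every ALCAR control array, in shares as after normalisation. The means were 13468 ± 2440 ppm and 2593 ± 1380 ppm (SD, n = 7 each), a 5.19-fold loss. The loss came to -2.15 on the log2 scale, with an SE of 0.27 and a 95% interval of -2.71 to -1.60 (limma adjusted p = 4.18e-06). Even after this loss every share of the spot was at least 4.0 times the floor of its array. On the log2 scale the SD at R150 was 0.62 in ALCAR suspended and 0.27 in ALCAR control arrays, and 0.60 and 0.51 in suspended and control arrays without ALCAR; in shares it was smaller in the ALCAR suspended arrays. These spreads were not tested.

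R303 was a spot of moderate signal that fell to the floor. In ALCAR control muscle it lay between 477 ppm (array F) and 740 ppm (array O), with a median of 573 ppm, and at 1.55 to 2.93 times the floor of its own array. In ALCAR suspended muscle it lay between 296 ppm (array D) and 521 ppm (array H), with a median of 332 ppm, and at 0.957 to 1.37 times the floor. In shares the groups overlapped through array H, whose whole floor was high. The ALCAR suspended array had the lower value in 47 of 49 pairs of arrays. After normalisation the groups did not overlap. The means were 609 ± 104 and 352 ± 78.5 ppm (SD, n = 7 each), a 1.73-fold loss that the floor limits from below. The log2 difference was -0.54 (SE 0.062, 95% interval -0.67 to -0.41, limma adjusted p = 9.40e-07), the smallest p of the comparison.

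RG473 gave the smallest p among the spots that rose. In ALCAR control muscle it lay between 751 ppm (array G) and 1267 ppm (array M), with a median of 1166 ppm. In ALCAR suspended muscle the lowest value was 1370 ppm (array H), the median 1828 ppm and the highest 2148 ppm (array P). All 7 unloaded arrays exceeded all 7 loaded ones, in shares as after normalisation. The means were 1061 ± 203 and 1849 ± 269 ppm (SD, n = 7 each), a 1.74-fold rise, and on the log2 scale the rise was 0.65 (SE 0.13, 95% interval 0.38 to 0.91, limma adjusted p = 0.00281).

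RG498, the other spot that rose by the rule, lay at the floor in both groups. It stood at 0.960 to 1.11 times the floor of its array in ALCAR control and at 1.11 to 1.30 times in ALCAR suspended rats. The shares ranged from 179 ppm (array M) over a median of 250 ppm to 460 ppm (array O) in ALCAR control arrays, and from 249 ppm (array L) over 347 ppm to 608 ppm (array H) in ALCAR suspended arrays. These ranges overlapped widely, and the ALCAR suspended array was higher in 36 of 49 pairs of arrays. After normalisation the groups did not overlap and differed by 0.15 on the log2 scale (SE 0.030, limma adjusted p = 0.00318). On unnormalised values the rise of 0.20 missed the threshold (limma adjusted p = 0.596), as did the 0.17 found after centring on bright spots (limma adjusted p = 0.996). In the untransformed shares the exact permutation p was 0.168.

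For R303, R150, RG473 and RG498 the exact permutation p of the normalised values was 0.000583 each. It is unadjusted, and the limma p that singled the spots out came from these arrays too. R303, R150 and RG473 passed in the same direction under all 42 alternatives that were run.

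**Figure D3:**
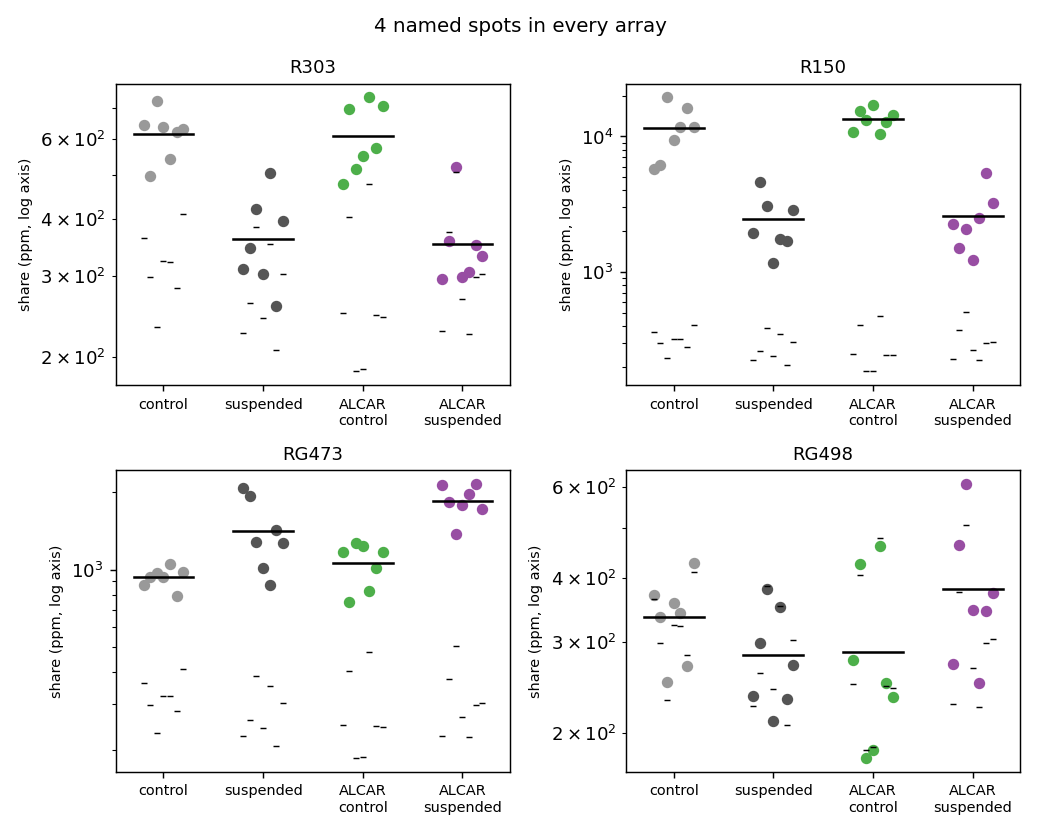
Share of R303, R150, RG473 and RG498 in each of the 28 arrays (points, ppm on a log axis), by group, with the group mean as a bar and the floor of each array as a small dash. R150 and RG473 separate ALCAR suspended from ALCAR control arrays without overlap, R303 overlaps in array H only, and RG498 follows the floor of its array.

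The fall of R150 was one of 4 losses of 2-fold or more by mean share, all at bright spots. The brightest of them went from 23812 ± 6903 ppm when loaded to 6632 ± 4427 ppm when unloaded (SD, n = 7 each), a 3.59-fold loss (log2 difference -2.06, SE 0.37, limma adjusted p = 0.000711). Its values spread widely: unloaded arrays ran from 1453 to 15399 ppm, and the highest of them exceeded the lowest loaded array, at 13070 ppm. The other two fell from 7605 ± 1995 to 3490 ± 875 ppm, 2.18-fold, and from 6457 ± 1653 to 3105 ± 931 ppm, 2.08-fold. Their log2 differences were -0.85 (SE 0.20) and -0.90 (SE 0.21), both at a limma adjusted p of 0.00881, and their shares overlapped between the groups. The only rise of 2-fold or more by mean share was at a spot with a low level in loaded muscle, from 407 ± 137 to 1143 ± 464 ppm, 2.81-fold (log2 difference 0.90, SE 0.21, limma adjusted p = 0.00893). Loaded arrays there ran from 273 to 621 ppm and unloaded ones from 466 to 1666 ppm, so that the groups overlapped. The loaded level was close to the floor, which limits this ratio as well.

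The remaining changed spots moved less. Among the other 8 brighter spots that rose the ratio of means had a median of 1.45 and a lowest value of 1.36, and the brightest of them averaged 14947 ppm in loaded and 22021 ppm in unloaded muscle. Among the other 7 brighter spots that fell the median ratio was 1.5 and the lowest 1.27. The 13 dimmer spots that rose started from mean shares of 278 to 469 ppm and reached 358 to 670 ppm, ratios of 1.26 to 1.43. The 15 dimmer spots that fell started from 333 to 724 ppm and ended at 314 to 481 ppm, ratios of 1.06 to 1.73. The floor, on average 285 ppm when loaded and 315 ppm when unloaded, is part of these shares and limits the ratios of dimmer spots. Of the 48 spots, 18 differed by less than 0.25 on the log2 scale, 11 that rose and 7 that fell.

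Together the 26 spots that fell held 6.64 ± 0.948% of the signal of loaded and 2.66 ± 0.575% of that of unloaded arrays (SD, n = 7 each). R150 and the brightest spot that fell held 3.73 ± 0.759% of the signal of loaded and 0.923 ± 0.512% of that of unloaded arrays. The other 24 spots held 2.91 ± 0.268% and 1.74 ± 0.131% of the array signal. The 22 that rose held 4.18 ± 0.815% and 6.01 ± 0.957%. The ranges did not overlap for the first set, at 5.55 to 8.05% against 1.92 to 3.62%, and did for the second, at 2.81 to 5.20% against 4.50 to 7.38%. These sums describe spots picked for their difference and carry no test. Because the shares of an array sum to 1, a gain of some spots and a loss of others cannot be told apart by shares alone.

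**Figure D4:**
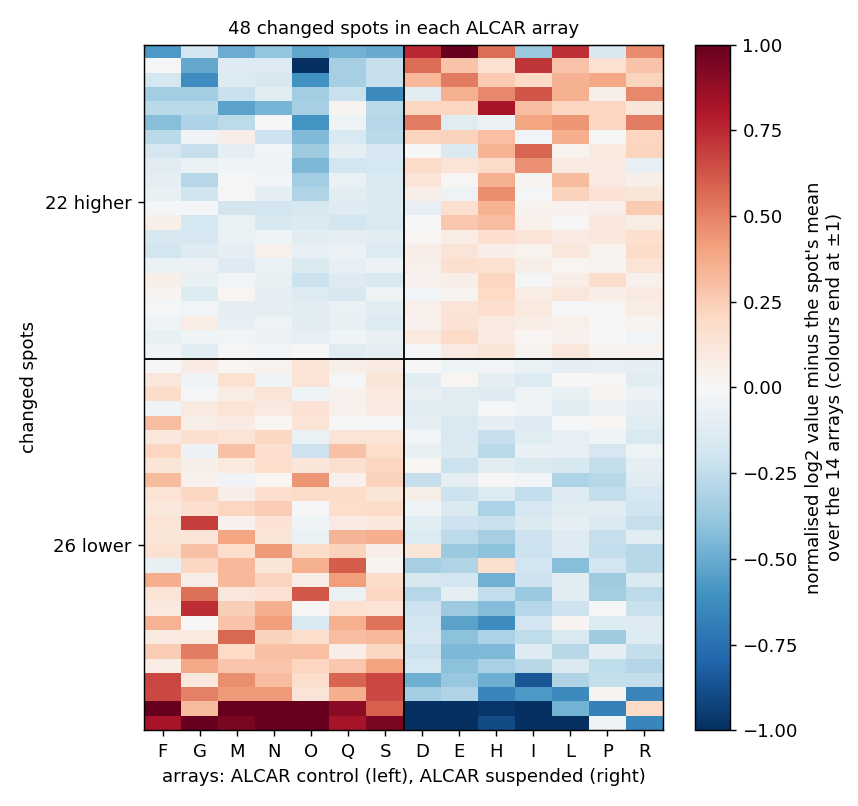
Normalised log2 values of the 48 changed spots (1 row each, largest difference at the outer edges) in the 14 ALCAR arrays (columns, by label letter). Values are centred on each spot's mean over these arrays, and red is higher and blue lower. In the bottom row, R150, ALCAR suspended P stands closest to the loaded arrays, at -0.05; 18 of the 48 spots differ by less than 0.25 and appear pale.

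Precision bounded what could be seen elsewhere on the array. The 95% interval of a difference had a median distance of 0.29 from centre to bound on the log2 scale for brighter spots and 0.12 for dimmer ones. The pseudocount compresses both the differences and the spread of dimmer spots, so their narrower interval does not show a more precise measurement. For 271 of the 292 brighter spots the interval lay between -1 and 1, and for 165 between -0.5 and 0.5. The median SD on the log2 scale over all spots was 0.10 in ALCAR suspended and 0.11 in ALCAR control arrays. Among brighter spots it was 0.24 and 0.20, and the ALCAR suspended arrays had the larger SD at 172 of 292.

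Rats without ALCAR gave a separate measure of unloading, on arrays that share no sample with the 14 ALCAR arrays, although they were normalised with them and share the estimate of spread. Of the 26 spots that fell with ALCAR, 25 were also lower in suspended than in control rats without it, where 50.9% of all spots were lower. Of these, 10 passed, against 3.46% of all spots called lower there. Of the 22 spots that rose, 18 were higher without ALCAR, where 49.1% of all spots were higher, and 2 passed, against 2.62% called higher. Without ALCAR the 11 brighter spots that fell had a median difference of -0.27, with 4 passing, and the 9 brighter spots that rose had one of 0.16, with 2 passing. The 15 dimmer spots that fell had a median of -0.12, with 6 passing, whereas the 13 dimmer spots that rose had one of 0.02, with 0 passing. The spots were picked in the ALCAR arrays, which alone makes their differences larger there. Conversely, 31 spots were called higher without ALCAR. With ALCAR 23 of these were higher, where 594 of all 1185 spots were, and 2 passed, against 1.86% of all spots. Another 41 spots were called lower without ALCAR. With ALCAR 38 of them were lower, where 591 of all 1185 spots were, and 10 passed, against 2.19% of all spots. These sets were picked in the arrays without ALCAR, which favours larger differences there. Across brighter spots the differences with and without ALCAR correlated at r = 0.64 (Spearman's rho 0.507, n = 292 spots), and across dimmer spots at r = 0.23 (rho 0.157, n = 893). Spots are not independent replicates, and the 2 sets of differences share the array platform and its scaling.

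In rats without ALCAR, R150 stood at 11486 ± 5046 ppm in control and 2444 ± 1163 ppm in suspended muscle, 4.70-fold lower, and R303 at 614 ± 74.8 and 363 ± 83.6 ppm, 1.69-fold lower. RG473 stood at 933 ± 83.7 ppm in control and 1410 ± 446 ppm in suspended muscle (SD, n = 7 each). Its difference without ALCAR was 0.39 (95% interval 0.13 to 0.66) and did not pass (limma adjusted p = 0.0620). Here the control arrays lay between 792 and 1056 ppm and the suspended ones between 868 and 2072 ppm, so that the groups overlapped. RG498 stood at 336 ± 60.0 and 283 ± 63.9 ppm, with a difference of -0.04 (95% interval -0.10 to 0.02). It was thus not higher after suspension without ALCAR, and its level there too was that of the floor.

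**Figure D5:**
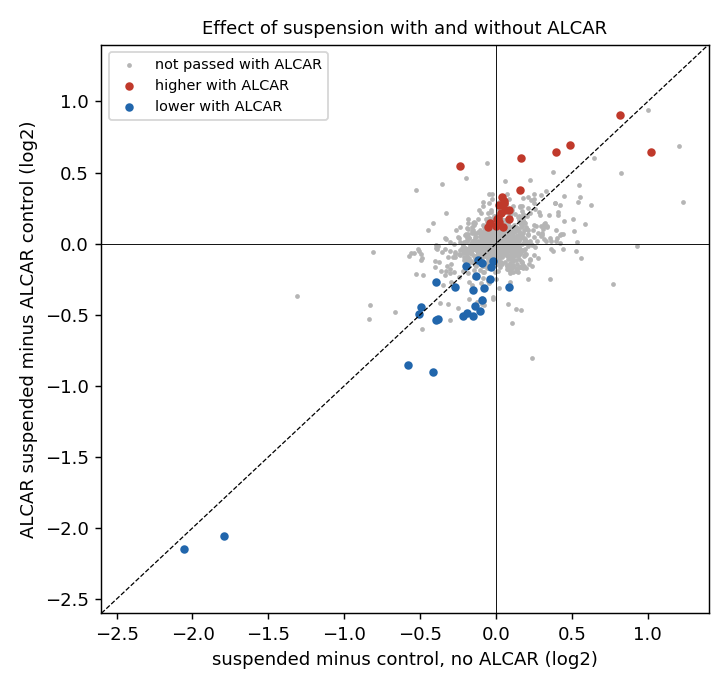
Difference between suspended and control arrays without ALCAR (horizontal axis) and with ALCAR (vertical axis), both log2(share + pseudocount), for 1185 spots; the dashed line marks equal differences. Red and blue points are the 22 and 26 spots that changed with ALCAR; the 2 strongest losses lie near the dashed line, and 1 brighter spot that rose with ALCAR lies left of 0.

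Whether unloading acted differently under ALCAR was tested as the difference between these 2 differences. None of the 1185 spots passed (0%; limma, smallest adjusted p = 0.0904), and before adjustment 169 spots (14.3%) had a p under 0.05. For R150 the difference between the effects was -0.10 (95% interval -0.88 to 0.69), for R303 -0.14 (-0.32 to 0.03) and for RG473 0.25 (-0.12 to 0.63). For RG498 it was 0.19 (0.10 to 0.27, limma adjusted p = 0.0904). A p that misses the threshold does not show that unloading acted alike in both sets of rats. With arrays weighted by quality 24 spots passed, and with the array median as a covariate 45 passed, 8 with a positive and 37 with a negative difference between the effects. Arrays with ALCAR are labelled by letters and those without by numbers. Any difference in handling between the sets cannot be told apart from ALCAR here.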

How the data were processed

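The deposited values are hybridisation intensities on a linear scale, which the authors deposited as shares: each array sums to 1. Per the labels' protocols, RNA from pooled 25 µm cryosections was extracted with RNeasy chemistry, and 3 µg was labelled with P32 for Clontech Atlas Rat 1.2 cDNA arrays, which have 1 colour. How the images were quantified and the background treated is not given in the sources used here. The lowest share was 146 ppm, so a floor remains in the values. The most alike ALCAR arrays (N and Q, Spearman's rho 0.948) had 0 identical values, and none was treated as a copy.

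Shares were taken as log2(share + 335 ppm), the lower quartile of all values, and quantile normalised, because array medians differed 2.16-fold, over the limit of 1.5-fold. limma 3.58.1 in R 4.3.3 fitted a mean per group over all 28 arrays with an intensity trend (lmFit, eBayes, two-sided), and p-values were adjusted by Benjamini-Hochberg over 1185 spots. The fit was tested on data simulated without differences in floor or scale between arrays, so that test does not bear on the scaling. The spots named are, for rises and for falls, the 2 with the smallest p among those called; gene lists could not be applied. The groups, lists and tests were chosen with earlier results of these data known. Control and suspended arrays share 5 numbers in their labels, of which 1 pair's deviations correlated above 0.1 (range -0.078 to 0.31), and no letter is shared between the ALCAR groups. The number of arrays limits the precision. Alternatives changed the pseudocount, scaling, floor, filter, prior, weights, covariate, block and arrays in the fit. Figures were drawn with matplotlib 3.10.9.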

Additional observations from a re-analysis of the deposited data

Results flagged for a closer look

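In 26 sets of 7 values from the ALCAR arrays (array measures and the 4 named spots), the distance of the outermost array to the next one was divided by the full range. It exceeded Dixon's 95% limit in 2 of them, where chance gives about 1 in 20, or 1.3.

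On the first principal component ALCAR control O lay at -5.65 and the nearest array of its group at -3.03, a gap of 0.789 of the range. In the shares of R303 ALCAR suspended H lay at 521 ppm and the nearest array at 359 ppm, a gap of 0.720 of the range; the floor of H, at 507 ppm, was the highest of the 14 arrays. R303 fell by 0.56 on the log2 scale without O and H (0.54 with them).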

How the results depend on the processing

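The count of 48 changed spots moved to between 39 and 70 when 1 of the 28 arrays was left out, the highest without suspended 5, and it stayed within 1.5 times. It became 19 on unnormalised values, 16 after centring on bright spots, 28 without ALCAR control O and ALCAR suspended H (chosen after seeing the data), 102 with the array median as a covariate and 156 with array weights. With a 10th or 4 times the pseudocount, the 5th percentile subtracted, and eBayes with no trend or a robust prior, it stayed between 43 and 59. Where only the 592 spots above the median share were tested, 44 passed, 30 of them among the 48. With the 14 ALCAR arrays fitted alone, 62 passed when normalised alone and 64 (added later) when normalised with all arrays. Each of these 2 fits held 40 of the 48. The count of 0 spots whose effect differed with ALCAR became 24 with weights and 45 with the covariate, and lay between 0 and 3 when 1 array was left out, with 3 without suspended 3. The cause was not tested. Whether equal numbers mark paired arrays cannot be decided from 5 pairs. With the numbers as a random replicate block, 47 spots changed, but this block joins only arrays without ALCAR. No spot named reversed. The pseudocount set the size at dimmer spots: R303 differed by -0.88 with a 10th of it and by -0.24 with 4 times it, and R150 by -2.29 and -1.80. Signal near the floor limits what 893 dimmer spots can show.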
